A study of Mus musculus with 24 samples.

Results

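The PDGF ligands and receptors are 6 genes, Pdgfa, Pdgfb, Pdgfc and Pdgfd for the ligands and Pdgfra and Pdgfrb for the receptors. They were taken by name from 3 tables of messenger RNA levels in cells sorted from mouse embryonic brain, which together give values for 25466 genes, and all 6 had a value and an adjusted p in all 3 tables. The Cre recombinase of all groups, controls included, was Pdgfrb-Cre, named for the promoter of a member gene, and all groups carried 1 copy of Zs, the ZS green fluorescent reporter. Cells were isolated by flow cytometry. Controls were Pdgfrb-Cre, Alk5(flox/+), Zs/+, with 1 floxed copy of Alk5, and mutants were Pdgfrb-Cre, Alk5(flox/flox), Zs/+, with both copies floxed. Alk5 is the older name of Tgfbr1, the type I receptor for TGF-beta. The groups were pericytes at E11.5 (4 control and 4 mutant libraries), pericytes at E13.5 (4 and 4) and endothelial cells at E13.5 (5 and 3). The labels give the mutants the disease state GMH-IVH, and they class the pericytes as mesenchymal cells.

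PDGF ligands are secreted dimers that bring receptor chains together on the cell surface, after which the chains phosphorylate each other and recruit signalling adaptors. PDGF-B made by endothelial cells acts on PDGFRB of pericytes and draws them along growing vessels, and loss of either gene leaves brain capillaries short of pericytes. PDGF-A and PDGF-C act through PDGFRA, which is prominent in mesenchyme, fibroblasts and oligodendrocyte precursors, and PDGF-D acts mainly through PDGFRB. PDGF-A and PDGF-B are cut to their active form inside the cell, whereas PDGF-C and PDGF-D carry a CUB domain that proteases remove outside it.

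The values used here were the authors' least-squares means of normalized counts, 1 per group, so read depth and the spread between libraries were not analysed here and a group's mean has no error of its own. Standard errors (SE) of log2 ratios were derived from the deposited ratio and p of each gene, and the intervals are 95% intervals built from them. The tables were normalized separately. Levels are therefore compared between genes within a table, per kilobase (kb) of the longest annotated transcript. Between tables they are compared as a percentile among the genes of a table. The nearest patterns across the 6 groups are the exception, with each mean divided by the sum of its group's means. Means and levels per kb of different tables are on different scales, and their differences are not read as changes. Tgfbr1 as a whole gene does not check the deletion, which removes part of the gene. Its log2 ratios of 0.43, 0.03 and -0.11 per the authors' deposited tables had adjusted p of 0.399, 1.00 and 0.859. In E13.5 pericytes Xist, the RNA of the inactive X chromosome, had a mean of 36145 in controls and 5.73 in mutants per the authors' deposited table, so sex and genotype cannot be told apart there. Nothing in the labels says whether libraries came from separate animals or litters, and the p-values then cover only library-to-library spread, which may be technical.

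The receptors were the most abundant members in pericytes, and Pdgfb and Pdgfd were the most abundant in endothelial cells. None of the 6 genes passed an adjusted p of 0.05 between mutants and controls in any of the 3 comparisons (DESeq2, as named by the submitters). Pdgfc in E11.5 pericytes came nearest, with a mutant to control ratio of 0.692 and an adjusted p of 0.063 per the authors' deposited table.

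**Figure D1:**
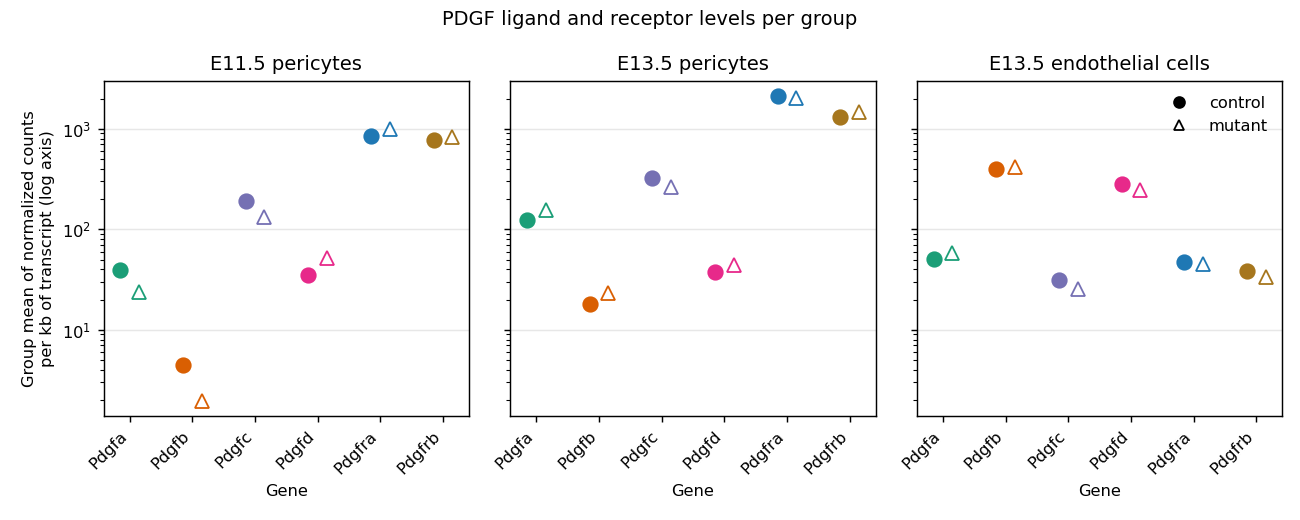
Group mean of normalized counts per kb of transcript (log axis) for each PDGF gene, with filled circles for controls and open triangles for mutants, 1 panel per table. Pdgfra and Pdgfrb stand highest in both pericyte tables, and Pdgfb and Pdgfd stand highest in endothelial cells; panels were normalized separately.

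Pdgfra encodes the alpha receptor and lies on the plus strand of chromosome 5, 75152292 to 75198215 (mm10). In E11.5 pericytes its mean was 5800 in controls and 6760 in mutants, and in E13.5 pericytes it was 14401 and 13708, per the authors' deposited tables. In endothelial cells the means were 320 in controls and 306 in mutants per the authors' deposited table. The control level per kb stood at the 92.1st percentile at E11.5, the 96.7th at E13.5 and the 36.0th in endothelial cells. It shares exon bases with Gm42802, Gm42803 and Mir7025, of which the first 2 had means of at most 12.02 where listed, per the authors' deposited tables. Per kb the control level was 849 at E11.5, 2107 at E13.5 and 46.8 in endothelial cells. Pdgfra thus ranked first of the 6 genes in all 4 pericyte groups and 4th in both endothelial groups.

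Pdgfrb encodes the beta receptor and lies on the plus strand of chromosome 18, 61045150 to 61085061 (mm10). Its means were 4200 in controls and 4474 in mutants at E11.5, and 7160 and 7973 at E13.5, per the authors' deposited tables. Endothelial cells had 207 in controls and 181 in mutants per the authors' deposited table. Per kb the control level was 775, 1320 and 38.2 in the same order. It stood at the 91.2nd, 94.5th and 32.9th percentile in controls of the 3 tables, second of the 6 genes in all pericyte groups and 5th in the endothelial groups. Within a group, the ratio of Pdgfra to Pdgfrb per kb was 1.10 in control and 1.20 in mutant pericytes at E11.5, and 1.60 and 1.36 at E13.5. These ratios compare 2 means without an error, so neighbours in the order cannot be separated by a spread. The 2 genes' longest transcripts have 6834 and 5423 bases. With the median transcript length (1561 bases for Pdgfra, 5415 for Pdgfrb) Pdgfra still ranks first in pericytes, and in endothelial cells it ranks above Pdgfa. Control levels of Pdgfra and Pdgfrb were then 3716 and 776 at E11.5, and 9225 and 1322 at E13.5. The size of the ratio thus depends on the length used. With the longest transcripts it was 1.23 in endothelial controls and 1.34 in endothelial mutants. Both receptors lay near the median of the pericyte markers there.

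The receptor levels were set beside markers of the cells that the sorts could hold. Of 19 pericyte markers, those with a value had a median level per kb at the 70.9th percentile in E11.5 controls, the 73.9th in E13.5 controls and the 36.3rd in endothelial controls. Markers of fibroblasts and meninges stood higher than the pericyte markers in the pericyte tables, at the 87.9th and 94.2nd percentile, with Col1a1, a fibrillar collagen, at the 99.2nd and 99.9th. Those markers of oligodendrocyte precursors, which also express Pdgfra, that were listed had a median at the 7.85th, 24.4th and 4.24th percentile in controls of the 3 tables. Olig2, their lineage factor, was not listed at E11.5 or in endothelial cells and had means of 45.3 and 25.0 at E13.5 per the authors' deposited table. The share of Pdgfra RNA from fibroblast-like cells among the sorted pericytes was not tested. In sorted bulk samples, fewer cells of a type and less RNA per cell cannot be told apart.

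**Figure D2:**
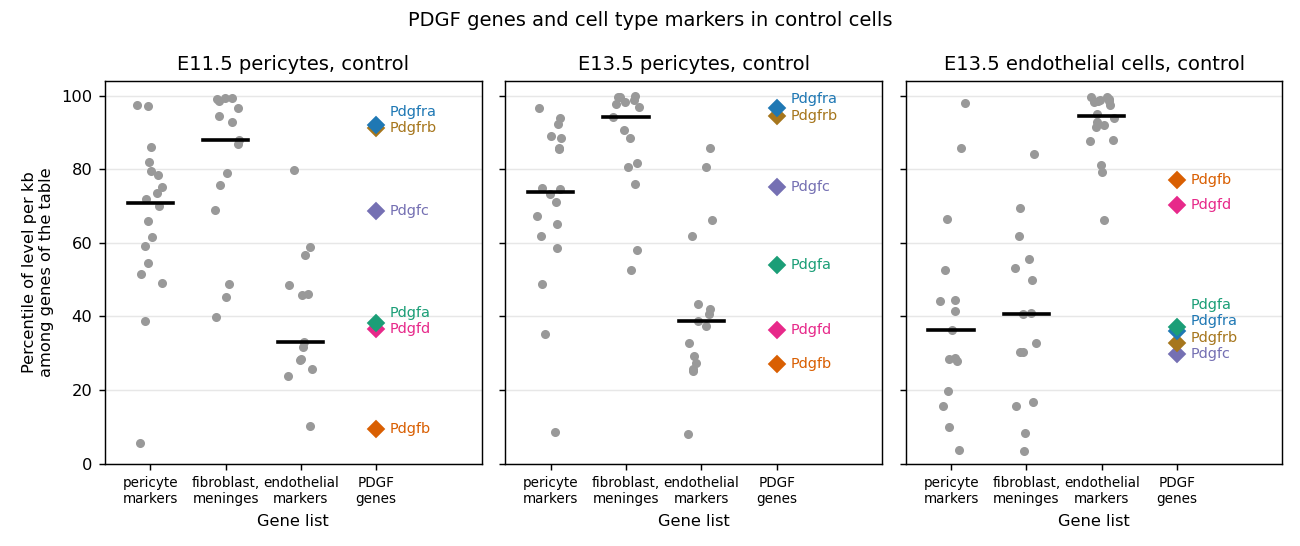
Percentile of the level per kb among the genes of each table, in control cells, for marker lists (grey points, black line at the median) and the 6 PDGF genes (coloured diamonds). Pdgfra and Pdgfrb lie at the 92.1st and 91.2nd percentile in E11.5 pericytes and at the 36.0th and 32.9th in endothelial cells, where Pdgfb and Pdgfd lie at the 77.1st and 70.4th.

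Pdgfb, the endothelial ligand of pericyte recruitment, lies on the minus strand of chromosome 15, 79995874 to 80014977 (mm10). Endothelial cells had means of 1171 in controls and 1225 in mutants per the authors' deposited table, at the 77.1st and 77.4th percentile per kb. Sorted pericytes had 13.2 in controls and 5.78 in mutants at E11.5, and 52.9 and 69.1 at E13.5, per the authors' deposited tables. Per kb the control level was 398 in endothelial cells, 4.48 at E11.5 and 17.97 at E13.5, at the 77.1st, 9.53rd and 27.2nd percentile. Those levels placed it last of the 6 genes in all 4 pericyte groups and first in both endothelial groups. Pdgfb made up 52.4% of the summed ligand level per kb in endothelial controls and 55.9% in mutants. Its share was 1.66% and 0.934% in E11.5 pericytes and 3.59% and 4.83% in E13.5 pericytes. With the median transcript length, Pdgfb and Pdgfd had levels per kb of 832 and 307 in endothelial controls, so such shares depend on the length used.

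Pdgfd, a ligand of PDGFRB, lies on the plus strand of chromosome 9, 6168584 to 6378850 (mm10). Its means were 878 in endothelial controls and 768 in endothelial mutants per the authors' deposited table. Pericytes had 109 in controls and 163 in mutants at E11.5, and 118 and 137 at E13.5, per the authors' deposited tables. The control level per kb was 281 in endothelial cells and 34.8 and 37.8 in pericytes, at the 70.4th percentile in the former and at the 36.6th and 36.4th in the latter. Together with Pdgfb it gave most of the ligand RNA of endothelial cells, with 36.9% of the summed level per kb in controls and 32.9% in mutants.

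Pdgfc, a ligand of PDGFRA, had the opposite distribution and lies on the plus strand of chromosome 3, 81036416 to 81214040 (mm10). Its means were 674 in controls and 466 in mutants in E11.5 pericytes, and 1134 and 931 in E13.5 pericytes, per the authors' deposited tables. In endothelial cells they were 109 and 90.4 per the authors' deposited table, the lowest of the 6 per kb. Per kb the control level was 191 at E11.5, 322 at E13.5 and 31.0 in endothelial cells. It was the main ligand RNA of pericytes, with 70.8% of the summed ligand level per kb in E11.5 controls, 62.9% in E11.5 mutants, 64.4% in E13.5 controls and 54.4% in E13.5 mutants.

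Pdgfa, the other ligand of PDGFRA, lies on the minus strand of chromosome 5, 138976014 to 138997370 (mm10). Its means in pericytes were 81.6 in controls and 49.1 in mutants at E11.5, and 252 and 319 at E13.5, per the authors' deposited tables. Endothelial cells had 103 in controls and 119 in mutants per the authors' deposited table. The mutant mean was thus below the control mean at E11.5 and above it in both E13.5 tables. In controls the level per kb was 39.6 at E11.5, 122 at E13.5 and 50.1 in endothelial cells, at the 38.4th percentile at E11.5, the 54.0th and the 37.1st percentile. Pdgfa shares exon bases with the antisense gene 6330403L08Rik, and the use of strand in counting is not given in the sources used here. How reads from the shared bases were assigned to the pair is therefore not known. That antisense gene had means of 23.4 and 7.09 at E11.5 (log2 ratio -1.72, adjusted p = 0.055) and of 227 and 243 at E13.5 (log2 ratio 0.10, adjusted p = 1.00) per the authors' deposited tables, and it was not listed in endothelial cells. Pdgfc shares exon bases with the antisense gene Gm16000, which had means of 14.5 and 11.7 at E13.5 per the authors' deposited table and was not listed elsewhere.

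The stretches before the start sites of Pdgfc and Pdgfd are shown because these 2 CUB-domain ligands had opposite distributions between the sorts and opposite signs at E11.5, where neither passed. Each is 250 bases, 5′ to 3′ on the gene's strand, from RefSeq's annotation of GRCm38.p6 (the assembly of mm10), and neither overlaps an annotated exon. For Pdgfd, RefSeq's start lies right after 6168485, before the start of 6168584 given above. Capitals mark CAGAC on either strand, the half-site bound by SMAD proteins, which carry the TGF-beta signal to DNA.
Pdgfc, chr3:81036166-81036415, plus strand: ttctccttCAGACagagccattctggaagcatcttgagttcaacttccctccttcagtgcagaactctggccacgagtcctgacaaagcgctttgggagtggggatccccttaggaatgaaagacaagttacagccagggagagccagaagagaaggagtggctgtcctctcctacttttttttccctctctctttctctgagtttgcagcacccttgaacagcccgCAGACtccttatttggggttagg
Pdgfd, chr9:6168236-6168485, plus strand: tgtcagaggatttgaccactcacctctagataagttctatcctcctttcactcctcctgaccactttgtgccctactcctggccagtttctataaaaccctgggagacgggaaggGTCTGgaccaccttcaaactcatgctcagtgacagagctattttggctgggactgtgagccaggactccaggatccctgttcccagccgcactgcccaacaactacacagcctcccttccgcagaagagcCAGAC

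Pdgfc held CAGAC at positions -242 and -23 and Pdgfd at -135, on the minus strand, and -5, counted back from RefSeq's start site. The same letters occurred in 42.2% of 32841 windows of this length. Pdgfc also held a CArG box, the element bound by serum response factor, at -17, which occurred in 1.47% of windows. Pdgfd held TATAAA at -160, which occurred in 12.4% of windows. Neither window held CCGGAAG, a core of ETS sites found in 6.91% of windows, or TGACTCA, an AP-1 site found in 4.46%. Both strands were searched. The motifs were chosen after the windows were read, so these shares do not measure how unusual a match is. The CArG box matched on both strands over the same bases, and no match of one motif overlapped a match of another. Windows of Pdgfra and Pdgfa were searched too and are not shown. The Pdgfra window held CAGAC at -146, on the minus strand. The Pdgfa windows, which overlap annotated exons, held 0 matches of CAGAC. At E11.5 Pdgfa had a ratio below 1, as Pdgfc had. The matches are a description of the letters in these windows.

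At E11.5, the ligand ratios in pericytes lay on both sides of 1 and farther from it than those of the receptors, without a test of that difference. In log2 units the mutant to control ratio was -0.53 for Pdgfc (SE 0.18, adjusted p = 0.063), -0.73 for Pdgfa (SE 0.34, adjusted p = 0.232) and 0.58 for Pdgfd (SE 0.27, adjusted p = 0.236) per the authors' deposited table. Pdgfb had a log2 ratio of -1.19 (SE 0.70, adjusted p = 0.365) from a control level at the 9.53rd percentile per the authors' deposited table. Pdgfra and Pdgfrb had log2 ratios of 0.22 (SE 0.24) and 0.09 (SE 0.20), with adjusted p of 0.662 and 0.852 per the authors' deposited table. The interval of the ratio ran from 0.812 to 1.40 for Pdgfrb and from 0.838 to 1.62 for Pdgfra. Both intervals held 1, so neither a lower nor a higher level in mutants can be told here. None of the 6 members passed, where 3.35% of 19301 genes did. At an unadjusted p under 0.05 there were 3 members, Pdgfa, Pdgfc and Pdgfd, where 17.7% of genes had such a p.

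Pdgfc lay close to the threshold and its call depended on scaling. When all ratios were centred on the median of the genes above the median level, its log2 ratio was -0.60 with an adjusted p of 0.024, and scaled to the summed means it was -0.58 with an adjusted p of 0.033. When the spread was rescaled so that the median test statistic matched a standard normal, 5 genes passed in place of 646 and Pdgfc was not among them. The factor of 1.51 only raises p-values, so Pdgfc could not have passed in that setting.

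Markers of other cells moved in the same libraries. Of 13 endothelial markers tested at E11.5, 1 was lower past the threshold and the median log2 ratio was -0.93, beside -0.73 and -1.19 for Pdgfa and Pdgfb. In controls Pdgfa stood at the 37.1st percentile in endothelial cells and the 38.4th in E11.5 pericytes, and Pdgfb at the 77.1st and 9.53rd. The endothelial markers were low in these pericytes. Their summed level was 2793 in controls and 2037 in mutants, and their median level per kb stood at the 33.0th percentile in controls. The other endothelial markers, Pecam1, Cldn5, Tie1, Sox17 and Esm1, were not listed. Among the fibroblast and meningeal markers 15 were tested, of which 4 fell and 1 rose, with a median of -0.69 and summed levels of 112447 and 84675. Of 18 pericyte markers, 5 fell and 1 rose, with a median of -0.46 and summed levels of 22607 and 16991. Of 11 myeloid markers 0 had a ratio above 1, with 1 call, a median of -0.82 and summed levels of 2038 and 1101, and 0 of 4 erythroid and 0 of 3 megakaryocyte markers did, with no call and medians of -1.02 and -0.64. Markers of smooth muscle had a median of 0.12 and those of neural progenitors and neurons of -0.02. Those of neural crest and Schwann cells had -0.50 and those of oligodendrocyte precursors -0.44, and no gene of these was called. With the spread rescaled, 0 genes of any of these lists passed. The median over all tested genes was 0.00. The part of these cell types in the ligand ratios was not tested.

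At E13.5 the pericyte ratios ran from 0.821 for Pdgfc to 1.31 for Pdgfb. Pdgfc had a log2 ratio of -0.28 (SE 0.13, adjusted p = 1.00) and Pdgfrb of 0.16 (SE 0.09, adjusted p = 1.00) per the authors' deposited table. The other log2 ratios were -0.07 for Pdgfra (SE 0.06), 0.34 for Pdgfa (SE 0.21), 0.39 for Pdgfb (SE 0.39) and 0.21 for Pdgfd (SE 0.19), each with an adjusted p of 1.00 per the authors' deposited table. The receptors were measured most tightly here. The interval of the ratio was 0.879 to 1.03 for Pdgfra and 0.988 to 1.25 for Pdgfrb. None of the 6 members passed, where 0.388% of 20084 genes did. At an unadjusted p under 0.05 there was 1 member, Pdgfc, where 4.06% of genes had such a p. Endothelial markers had a median log2 ratio of 0.22 over 14 tested, 1 of which fell, beside the 0.39 of Pdgfb. Their summed level was 6011 in controls and 6009 in mutants, and their median level per kb stood at the 38.7th percentile in controls. Pecam1, Cldn5 and Sox17 were not listed. The part of endothelial cells in the Pdgfb ratio was not tested.

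In endothelial cells at E13.5, the ligand that recruits pericytes had means of 1171 and 1225 in the 2 genotypes. The log2 ratio of Pdgfb was 0.06 (SE 0.15, adjusted p = 0.871) and that of Pdgfd -0.19 (SE 0.16, adjusted p = 0.543) per the authors' deposited table. The interval of the ratio was 0.850 to 1.29 for Pdgfb and 0.704 to 1.09 for Pdgfd. Pdgfa and Pdgfc had log2 ratios of 0.21 (SE 0.30) and -0.27 (SE 0.46), and Pdgfra and Pdgfrb of -0.06 (SE 0.40) and -0.20 (SE 0.45), with adjusted p between 0.761 and 0.954 per the authors' deposited table. None of the 6 members passed, where 7.30% of 18132 genes did. At an unadjusted p under 0.05 there was none either, where 20.0% of genes had such a p.

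Blood cell RNA differed between these endothelial groups. Of 7 markers of megakaryocytes and platelets, cells that store PDGF, 5 rose, with a median log2 ratio of 1.12 and summed levels of 8807 in controls and 19627 in mutants. The platelet chemokine gene Pf4 had means of 1821 and 5418 per the authors' deposited table. Erythroid markers rose in 8 of 9 cases, with a median log2 ratio of 3.93 and summed levels of 59099 in controls and 1599538 in mutants. Of 12 myeloid markers 1 rose, with a median of 0.60 and summed levels of 15091 and 23433. Of 18 endothelial markers 1 fell, with a median of -0.22. With the spread rescaled, 0 of these markers passed. The part of platelets and other blood cells in the Pdgfa and Pdgfb levels was not tested.

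**Figure D3:**
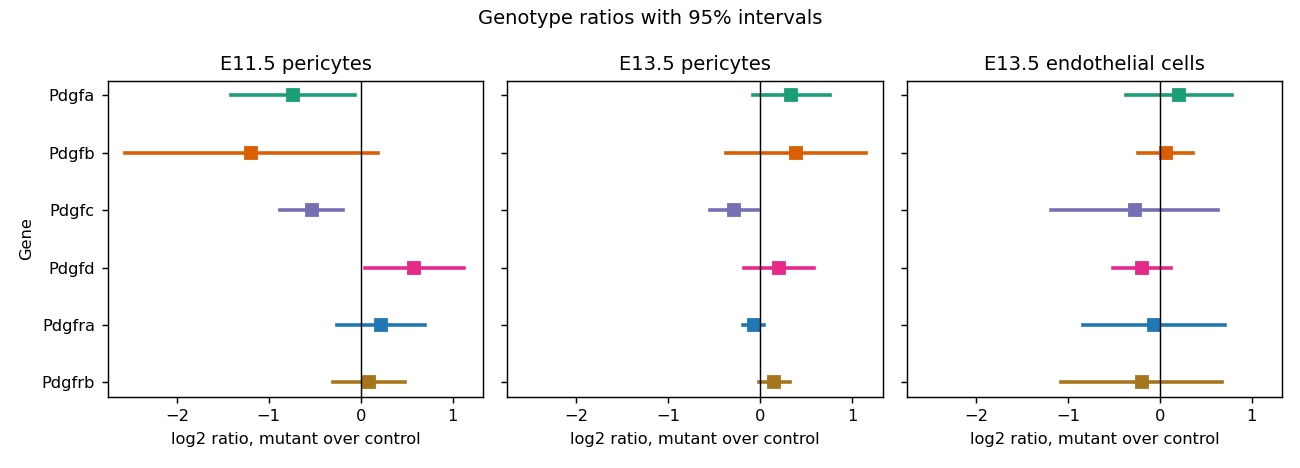
Log2 ratio of mutant to control for each PDGF gene (squares) with its 95% interval from the implied SE (lines), 1 panel per comparison. Pdgfc lies left of 0 in all 3 panels, and no gene passes an adjusted p of 0.05.

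**Figure D4:**
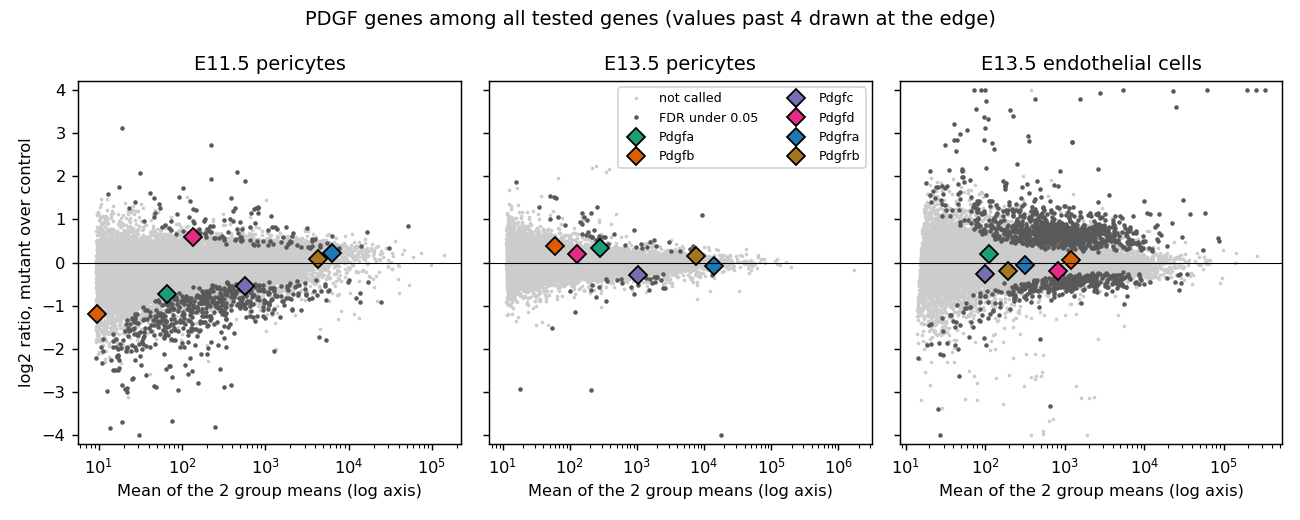
Log2 ratio of mutant to control against the mean of both group means (log axis) for all tested genes, with genes past an FDR of 0.05 in dark grey and the PDGF genes as coloured diamonds. At E11.5 Pdgfc, at a log2 ratio of -0.53, lies at the edge of the called genes of its level; in the other panels the 6 genes lie among genes that were not called.

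The genotype ratio was then compared between stages and between cell types, in groups that share no library. The test treats the errors of the 2 ratios as independent. The labels do not say whether E13.5 pericytes and endothelial cells came from the same embryos, so independence could not be checked. For Pdgfa the log2 ratio was -0.73 at E11.5 and 0.34 at E13.5, a difference of 1.07 (SE 0.40, 95% interval 0.28 to 1.86), with an adjusted p of 0.181. For Pdgfb the ratios were -1.19 and 0.39, a difference of 1.58 (SE 0.80, 95% interval 0.00 to 3.15), with an adjusted p of 0.375. Pdgfc, Pdgfd, Pdgfra and Pdgfrb differed between stages by 0.25, -0.38, -0.29 and 0.06, with adjusted p from 0.640 to 0.931. None of the 6 members passed for the stage difference, where 1.43% of 18267 genes did, and Pdgfa and Pdgfb had an unadjusted p under 0.05, as 13.3% of genes had.

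Between endothelial cells and pericytes at E13.5, the largest difference in size was that of Pdgfd, at -0.40 (SE 0.25, 95% interval -0.90 to 0.09, adjusted p = 0.464). Pdgfrb differed by -0.35 (SE 0.46) and Pdgfb by -0.32 (SE 0.42), both with an adjusted p of 0.798. For Pdgfc and Pdgfra the differences were 0.01 (95% interval -0.93 to 0.96) and 0.01 (95% interval -0.78 to 0.79), wide enough to hold a change in either direction. None of the 6 members passed, where 3.94% of 16920 genes did, and 0 had an unadjusted p under 0.05, as 15.6% of genes had.

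Genes around the receptors were followed in 5 lists with 97 genes in all, apart from the 6 members. At E11.5, 5 of 94 tested fell and none rose, or 5.32% where 3.35% of all genes were called, with a median log2 ratio of -0.25. Lower calls prevailed over all genes too, with 522 lower and 124 higher. At an unadjusted p under 0.05 there were 27 of the 94, or 28.7% where 17.7% of all genes had such a p. At E13.5 none of 95 passed in pericytes, where 0.388% of all genes did, with a median of -0.01, and 3, or 3.16%, had an unadjusted p under 0.05, where 4.06% of all genes had. In endothelial cells 1 of 95 rose and 2 fell, or 3.16% where 7.30% of all genes were called, with a median of -0.05, and 19, or 20.0%, had an unadjusted p under 0.05, the same share as over all genes. With the spread rescaled as for Pdgfc, 0 of these list genes passed in E11.5 pericytes and 0 in endothelial cells, so each of the 8 calls named next was lost. Over all genes, 5 passed in place of 646 at E11.5 and 49 in place of 1323 in endothelial cells.

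Among genes that process the ligands, Pcsk6, a proprotein convertase, fell at E11.5 by 1.51 on the log2 scale (SE 0.48, adjusted p = 0.0495), from a mean of 39.1 to 13.7 per the authors' deposited table. It was the only call of 9 tested there. Furin, which cleaves the precursors of PDGF-A and PDGF-B, had a log2 ratio of -0.60 (adjusted p = 0.128), and Plat, the protease that activates PDGF-C, had means of 3435 and 3479 per the authors' deposited table. Plaur, the receptor of the urokinase that can activate PDGF-D, rose in endothelial cells from 811 to 1111, a log2 ratio of 0.45 (SE 0.15, adjusted p = 0.042), the only call of 10 there per the authors' deposited table; scaled to the summed means it was 0.33 (adjusted p = 0.141).

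Among genes of ligand retention and receptor partners, 2 of 13 fell at E11.5 and the list's median was -0.53. Agrn, a heparan sulfate proteoglycan of basement membranes, went from a mean of 2271 to 1454, a log2 ratio of -0.64 (SE 0.16, adjusted p = 0.0049), and the matricellular gene Thbs1 from 6869 to 3770, a log2 ratio of -0.87 (SE 0.27, adjusted p = 0.041), per the authors' deposited table. Nrp1, a co-receptor for several growth factors, had a log2 ratio of -0.84 with an adjusted p of 0.059 per the authors' deposited table. At E13.5 Agrn and Thbs1 had log2 ratios of -0.06 and -0.05 in pericytes, with adjusted p of 1.00 per the authors' deposited table, and in endothelial cells none of the 13 passed, with Thbs1 at 0.73 (adjusted p = 0.163).

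Signalling genes inside the cell gave 3 calls over the 3 comparisons. Of 36 adaptors and effectors 0 passed in pericytes at either stage, with medians of -0.16 and 0.00. Gab1, a docking protein, fell in endothelial cells from 1392 to 931, a log2 ratio of -0.58 (SE 0.17, adjusted p = 0.011), the only call of 36 there per the authors' deposited table. Of 17 negative regulators, Spred2, an inhibitor of RAS and MAPK signalling, fell at E11.5 by 0.94 on the log2 scale (SE 0.26, adjusted p = 0.016), and the receptor phosphatase gene Ptprk fell in endothelial cells by 0.32 (SE 0.10, adjusted p = 0.017), per the authors' deposited tables. At E13.5 none of the 17 passed in pericytes.

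Of 19 immediate response genes of PDGF stimulation tested, which also respond to many other stimuli and to cell dissociation, 1 fell at E11.5. It was Klf4, a Krüppel-like transcription factor gene, with means of 486 and 144 and a log2 ratio of -1.75 (SE 0.40, adjusted p = 0.0017) per the authors' deposited table. The list's median was -0.77 at E11.5, -0.28 in E13.5 pericytes and 0.03 in endothelial cells, where medians over all genes were 0.00, 0.00 and -0.01. The part of cell dissociation in these values was not tested.

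**Figure D5:**
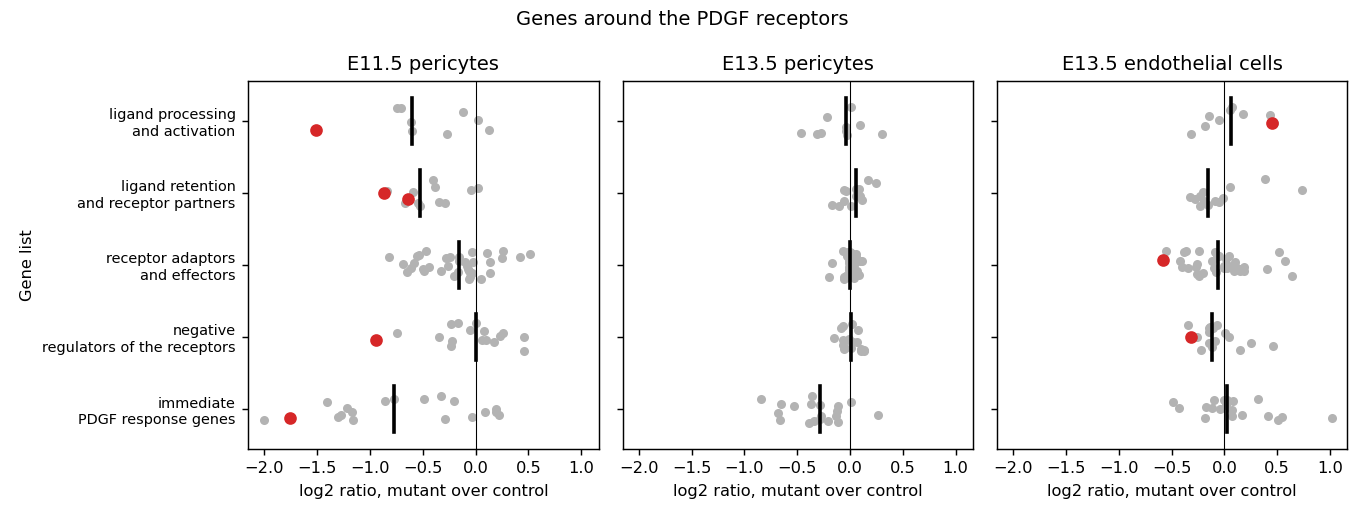
Log2 ratio of mutant to control for each tested gene of 5 lists around the PDGF receptors (points, red where the FDR is under 0.05, black line at the list's median), 1 panel per comparison. At E11.5 the medians of 3 lists lie between -0.77 and -0.53, those of adaptors and negative regulators at -0.16 and 0.00.

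Across the 6 groups, the pattern of each member was compared with 10780 other genes, as the root mean square (RMS) difference of log2 levels after centring each gene on its own mean. The groups of a table share their normalization, so the likeness is a description. Because genes were chosen for matching a member in all 6 groups, their ratios resemble the member's by that choice. Pdgfrb was nearest to Acta2 (RMS 0.11), Cdh11 (0.15) and Arhgef40 (0.15), and Pdgfra to Cdh11 (0.09), Pdgfrb (0.17) and Veph1 (0.17). Pdgfb was nearest to Gpr65 (RMS 0.17), Csf2rb (0.18) and Cytip (0.23), and Pdgfd to Tspan2 (0.10), Ece1 (0.10) and Cmtm6 (0.11). A gene had to exceed the median level in only 1 group. Gpr65, Csf2rb and Cytip had control means of 1046, 1994 and 524 in endothelial cells per the authors' deposited table. In E11.5 pericytes their control means were 13.6, 29.3 and 6.41, and Cytip had no adjusted p there. That part of their pattern thus rests on low means. Pdgfc was nearest to Zfp579 (RMS 0.11), Chst14 (0.13) and Auts2 (0.14), and Pdgfa to Mbd2, Wsb2 and Kifc3 (RMS 0.13 each). Cdh11 was thus among the nearest 3 genes of both receptors, and Pdgfrb among those of Pdgfra, whereas no ligand had another PDGF gene among its nearest 3.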

How the data were processed

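The 24 libraries were made from sorted cells with the KAPA mRNA HyperPrep kit and read on a NovaSeq sequencer, according to the labels' protocols. The submitters' processing notes name Bowtie2, DESeq2, Partek and the build mm10, with no version; the authors' counting step, annotation, filters and model formula are not given in the sources used here. Each of 3 deposited tables holds, per the file headers, p-values, step-up FDR values, the mutant to control ratio, a fold change with a sign (a score, not used for tests) and 1 least-squares mean per group, read as a signal of normalized counts by the authors. The authors' FDR, given for 19301, 20084 and 18132 genes, is printed as the adjusted p of their DESeq2 test. Depth is unknown from group means, so no counting interval is given.

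From these, log2 ratios, the SE (the log2 ratio over the normal deviate of the two-sided p, assuming a Wald test) and differences between log2 ratios (normal test, Benjamini-Hochberg over all genes tested in both tables) were computed. The test of differences was run on simulated estimates drawn with the same SE, so that run cannot show whether the SE is right. Transcript lengths and positions come from GENCODE M21 for mm10, which matched 97.4%, 97.3% and 97.4% of the genes with a value, and promoter windows from RefSeq, which held 4 of the 6 members by symbol. The members, 5 pathway lists and 10 marker lists were chosen with earlier results of these data known. Named genes were the 6 members, called genes of the pathway lists (at most 6 per comparison by p) and the 3 nearest patterns per member among genes above the median level in 1 group, without predicted genes and pseudogenes. Furin, Plat, Nrp1, Pdgfrl, Col1a1, Olig2, Pf4, Tgfbr1, Xist and the antisense genes were named after their values were seen. So were the unlisted endothelial markers Pecam1, Cldn5, Tie1, Sox17 and Esm1. The promoter motifs were chosen after the windows were read. Alternatives were an FDR of 0.1, no filter, a mean of at least 10, a rescaled spread, other scalings and the median transcript length. The tools were scipy 1.17.1, pandas 2.3.3, numpy 2.4.6, matplotlib 3.10.9 and Python 3.11.15.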

Additional observations from a re-analysis of the deposited data

How the results depend on the processing

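The count of members past the threshold was 0 in all 5 tests, the 3 genotype comparisons and the 2 differences. It stayed 0 without a filter on low genes, with a mean of at least 10 and with the spread rescaled, wherever these were run. With an FDR of 0.1 it was 1 in E11.5 pericytes (Pdgfc) and 0 in the other tests. Of 54 alternatives for the members' log2 ratios, 51 kept direction and side of the threshold. In 2 of them Pdgfc at E11.5 passed, with log2 ratios of -0.60 and -0.58. Rescaling the spread leaves each log2 ratio as it was, so it cannot change a direction. Its factors of 1.51 at E11.5 and 1.48 in endothelial cells only raise p-values, so no member could have passed there. In endothelial cells, scaling to the summed means moved all log2 ratios by 0.13, and that of Pdgfb became -0.061 in place of 0.065 (adjusted p = 0.845). The sums used for this scaling include the erythroid markers, with summed levels of 59099 in controls and 1599538 in mutants. The part of erythroid RNA in that shift was not tested. Of 90 pairs of members within groups, 86 kept their order of level with the median transcript length; the others were Pdgfra and Pdgfa in both endothelial groups, Pdgfrb and Pdgfc in endothelial controls and Pdgfb and Pdgfd in E13.5 mutant pericytes. The nearest patterns cannot change with the scaling, because a factor common to a group cancels between genes. Alternatives for the pathway lists were chosen after seeing the data. The count of list genes called at E11.5, 5 as deposited, was 0 with the spread rescaled and 7 under each of the others. In endothelial cells, 3 as deposited, it was 0 with the spread rescaled, 6 with an FDR of 0.1, 12 scaled to the summed means and 3 when centred. In E13.5 pericytes it was 0 under all of them. No paired analysis was possible because the tables carry 1 mean per group and no library values, and leaving out each replicate was not run for the same reason. In pericytes Pdgfb had the widest SE of the 6 genes, 0.70 at E11.5 and 0.39 at E13.5 on the log2 scale.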

Other observations

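Markers of other cell types gave these values beside the PDGF genes. Smooth muscle markers, of cells that also carry PDGFRB, gave medians of 0.12 at E11.5 and 0.38 at E13.5 (log2 ratio) over 7 tested in pericytes, none of which passed, and 0.26 over 2 tested in endothelial cells. In E13.5 pericytes, myeloid markers had a median of 0.01 over 12 tested, markers of megakaryocytes and platelets of -0.22 over 3 and erythroid markers of 2.13 over 6, with none called. Markers of neural crest and Schwann cells had medians of -0.50, -0.09 and -0.32 in the 3 tables, those of neural progenitors and neurons -0.02, 0.07 and -0.09, and those of oligodendrocyte precursors -0.44, 0.04 and -0.07, with none called. Pericyte markers had a median of 0.10 in E13.5 pericytes, where 2 rose and 1 fell, and of -0.23 in endothelial cells, where 1 rose and 1 fell. Markers of fibroblasts and meninges had medians of 0.09 and -0.03 in these tables, with 0 and 1 called.

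Pdgfrl, a receptor-like relative that lacks the kinase domain, was on the list of receptor partners and on that of fibroblasts and meninges. It had means of 151 in controls and 124 in mutants at E11.5, 693 and 615 at E13.5, and 67.7 and 57.7 in endothelial cells, per the authors' deposited tables. Its log2 ratios were -0.29, -0.17 and -0.23 in the 3 comparisons, and none passed (adjusted p = 0.581, 1.00 and 0.848) per the authors' deposited tables.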
